A study of Mus musculus with 8 samples.

Results

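The genes described here encode the kinesin, dynein and dynactin subunits that move cargo along microtubules, measured in the spinal cord of mice from a study of Arf1 deletion induced by tamoxifen. They were chosen by symbol, as the kinesin heavy chains (Kif and Kifc), kinesin light chains (Klc), cytoplasmic dynein subunits (Dync1 and Dync2) and dynactin subunits (Dctn), with at least 10 expected counts in at least 4 libraries. Among the 47643 genes counted, 57 had such a symbol, and 52 passed the minimum: 35 kinesin heavy chain, 4 light chain, 7 dynein and 6 dynactin genes. The 5 that missed it were Kif12, Kif2b, Kif18b, Kif14 and Kif2c, whose fourth-highest library held 0, 0, 5, 6 and 8 expected counts, and the nearest members inside it were Kif15 with 11 and Kif24 with 19.

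RNA was taken from whole spinal cord of C57BL/6 mice, with 4 libraries labelled heterozygous and 4 labelled homozygous. The mice of the study were 2 to 10 months old, and Arf1, a small GTPase of the Golgi apparatus, was deleted by intraperitoneal tamoxifen at 100 mg/kg. The design text places the question in neurons. The labels used here name neither the Cre driver, nor the allele behind the genotype, nor the sex and age of each mouse, nor whether heterozygous mice received tamoxifen. Each title carries a number of its own, and the p-values below measure the spread between these libraries.

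Kinesins are ATP-driven motors, most of which walk towards the plus ends of microtubules, and so carry vesicles, mitochondria and cytoskeletal proteins outwards along an axon. Cytoplasmic dynein-1, working with its large activator dynactin, walks towards the minus ends and returns endosomes, signalling complexes and worn organelles to the cell body. Other members of the same families build cilia (kinesin-2 and dynein-2) or spindles (the mitotic kinesins), and mutations in several of the axonal motors cause spastic paraplegia, motor neuropathy or motor neuron disease.

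The heterozygous libraries held 29857210 to 37803594 expected counts each, and the homozygous libraries 26321522 to 37879426. Arf1 was at 297 to 333 CPM (counts scaled to library size) in the heterozygous libraries and at 22.4, 22.7 and 39.8 CPM in homozygous replicates 2 to 4. The library labelled homozygous replicate 1 held 308 CPM of Arf1, within the heterozygous range and against its label. Comparisons are therefore given with all 8 libraries and again with 7, leaving that library out; where 2 log2 fold changes follow each other, the first is with 8 and the second with 7. Homozygous replicate 3 had 92.36% of reads mapped and 2.44% ribosomal bases, where the other 7 libraries had 98.33% to 98.53% and 0.1% to 0.34%. Heterozygous replicate 4 had the highest ratio of 5′ to 3′ coverage, 0.5046 against 0.413 to 0.4407 in the others. The RNA integrity number was 8 in homozygous replicate 4 and 9 in the other 7 libraries. All 8 neuron markers were detected in every library and summed to 7395 to 8811 CPM in the heterozygous and 7577 to 8202 CPM in the homozygous group, and the 8 oligodendrocyte markers summed to 10171 to 11769.8 and 8118 to 15821 CPM. The summed markers of Schwann cells (4 of 4 detected in every library; 147 to 598 against 39.9 to 87.9 CPM) and of meningeal fibroblasts (5 of 5; 46.8 to 109.7 against 24.1 to 41.7 CPM) did not overlap between the groups. Taken singly, the fibroblast marker Col1a2 did overlap, with 15.2 CPM in heterozygous replicate 1 and 21.6 CPM in homozygous replicate 4. The 3 skeletal muscle markers summed to 298 CPM in heterozygous replicate 1. They summed to 5.25 to 11.9 CPM in the other heterozygous and 8.81 to 36.8 CPM in the homozygous libraries.

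Per unit of transcript length the motor transcriptome was led by axonal motors. The most abundant member was Kif5a, a kinesin-1 heavy chain made mainly by neurons and a gene of hereditary spastic paraplegia and amyotrophic lateral sclerosis, at 854 ± 134 TPM (counts scaled to transcript length and library; SD over 8 libraries). It was followed by its light chain partner Klc1 at 504 ± 66.7 TPM and by the synaptic vesicle precursor motor Kif1a at 285 ± 43.1 TPM. These ranges did not overlap from Kif5a to Klc1 or from Klc1 to Kif1a, whereas Kif1a, Kif5c (263 ± 35.3), Kifc2 (244 ± 19.3) and Dctn2 (217 ± 10.7 TPM) each overlapped the next in order. In all, 12 members had a mean of 100 TPM or more, 18 lay between 10 and 100, and 22 were under 10, of which 9 were under 1 TPM. Of the summed TPM of the 52 genes, kinesin-1 heavy chains made up 28.8%, dynactin 17.2%, kinesin light chains 15.5%, kinesin-3 12.6% and dynein-1 11.4%. Kinesin-2 made up 4.55%, dynein-2 0.518% and the 9 mitotic kinesins 0.198%.

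**Figure D1:**
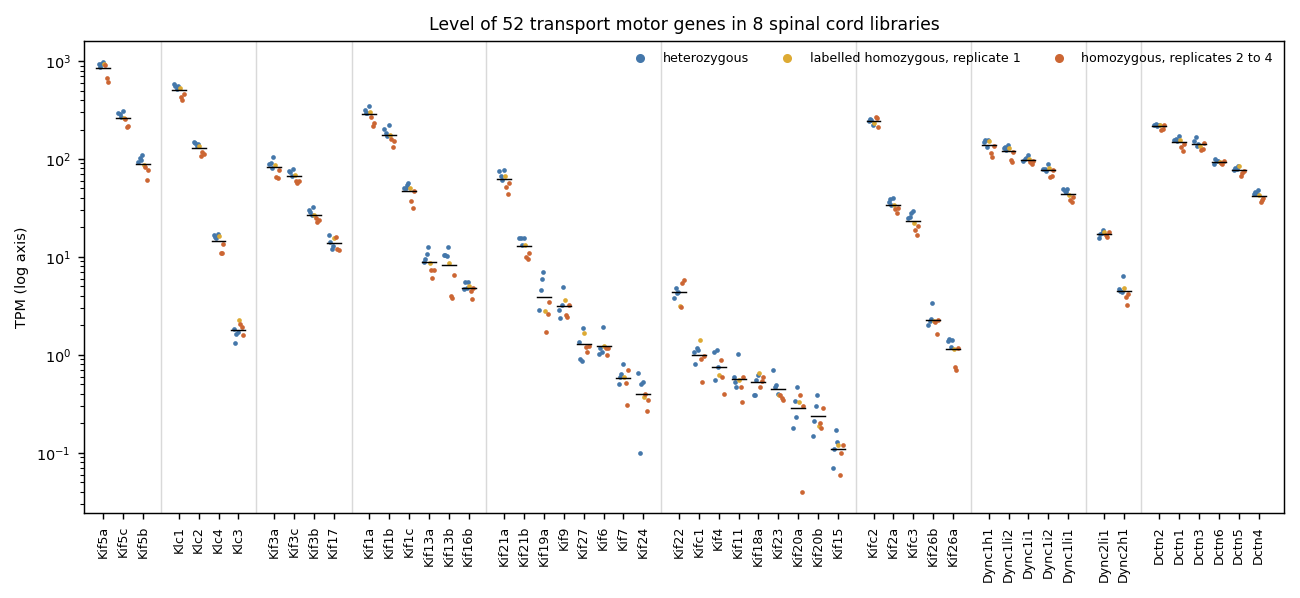
TPM (log axis) of the 52 motor genes in each of 8 libraries, grouped by role; points are libraries, coloured by group, and the bar is the mean over all 8. Kif5a, Klc1 and Kif1a, at means of 854, 504 and 285 TPM, stand at the top, and the mitotic kinesins near the bottom.

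With all 8 libraries none of the 52 motor genes passed an adjusted p of 0.05 in either direction, and among all 16511 genes tested the share called higher was 0% and lower 0% (edgeR quasi-likelihood test, Benjamini-Hochberg adjustment). At an unadjusted p under 0.05, 10 members were lower and 1 was higher (19.2% and 1.92% of members), where 8.90% and 7.87% of all tested genes were. DESeq2 on the same libraries called 5 members lower, namely Kifc3, Kif13b, Kif19a, Kif21b and Kif13a, within 270 higher and 409 lower genes in all. With 7 libraries edgeR called 2 members lower, Kif13b and Kif21b, and none higher, beside 0.670% of 16560 tested genes lower and 0.550% higher (1.22% in either direction). Unadjusted, 13 were lower and 1 higher (of 52), against 9.94% lower and 9.51% higher among all tested genes. DESeq2 with 7 libraries called the same 5 members lower as with 8, within 431 higher and 650 lower genes in all.

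Small differences in the downward direction were spread over the kinesins and dynein heavy chain. The log2 fold change (homozygous minus heterozygous) was below 0 for 36 of 52 members with 8 libraries, against 49.6% of all tested genes, and for 37 with 7, against 49.5%, with 36 below 0 in both. The median of the members was -0.085 with 8 and -0.11 with 7 libraries, where the median of all tested genes was 0.0015 and 0.0027. With 1 library left out, the median of the members ranged from -0.11 to -0.051 and from -0.13 to -0.063. It was nearest to 0 without heterozygous replicate 4, where 31 of 52 and 30 of 51 members were below 0. Without overlap between the groups 5 members were lower with 8 libraries (Kif13b, Kif16b, Kifc3, Dync1h1 and Dync1li1; 4.83% of all tested genes) and 1 was higher (Dync2li1; 4.28%). With 7 libraries 13 were lower (9.64% of all tested genes) and Dync2li1 was again the 1 that was higher (8.90%).

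**Figure D2:**
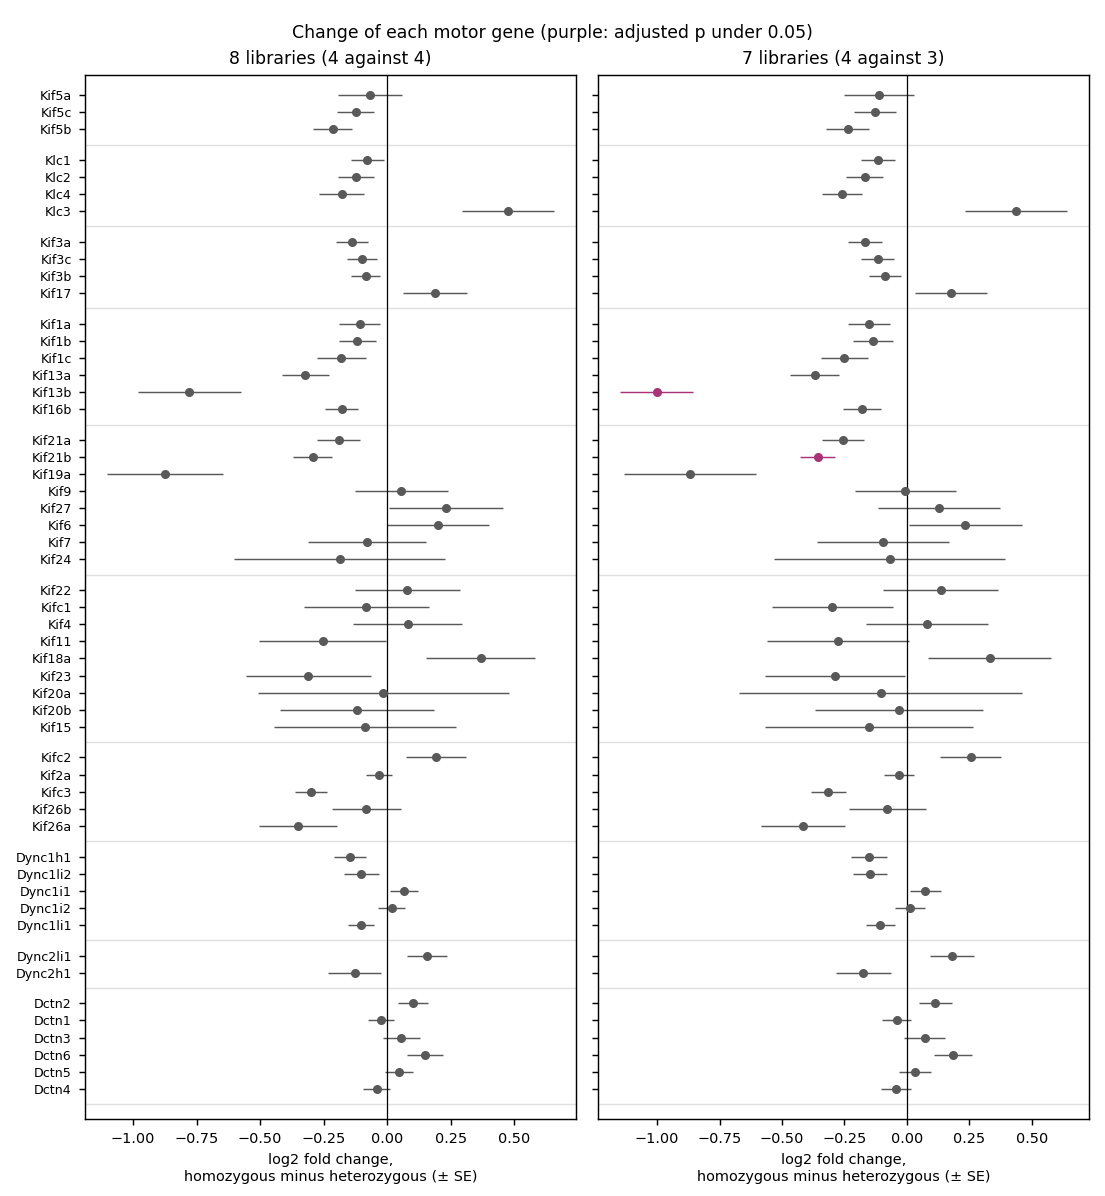
Log2 fold change (homozygous minus heterozygous, ± SE) of each motor gene, grouped by role, with 8 libraries on the left and 7 on the right; purple marks an adjusted p under 0.05. Only Kif13b and Kif21b are purple, in the 7-library panel, and dynactin lies close to 0.

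Transcript length moved with these differences. The members had a median effective length of 3673 bases, against 2366 for all genes tested with 8 libraries, and 17 of 52 were among the longest 10% of those genes. Across all tested genes Spearman's rho of the log2 fold change with effective length was -0.32 with 8 and -0.31 with 7 libraries, and across the 52 members it was -0.49 and -0.47; genes share libraries and are not independent replicates. The median log2 fold change of all genes went from 0.13 in the shortest 10% to -0.093 in the longest 10% with 8 libraries. Of the 26 members at or above the median member length, 24 were below 0 (median -0.12 with 8 and -0.15 with 7 libraries), beside 2900 of 4141 genes of that length with 8 libraries (median -0.073) and 2876 of 4146 with 7 (median -0.083). Of the 26 shorter members 12 were below 0 with 8 libraries and 13 with 7. The part of length in the differences of the motor genes was not tested.

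**Figure D3:**
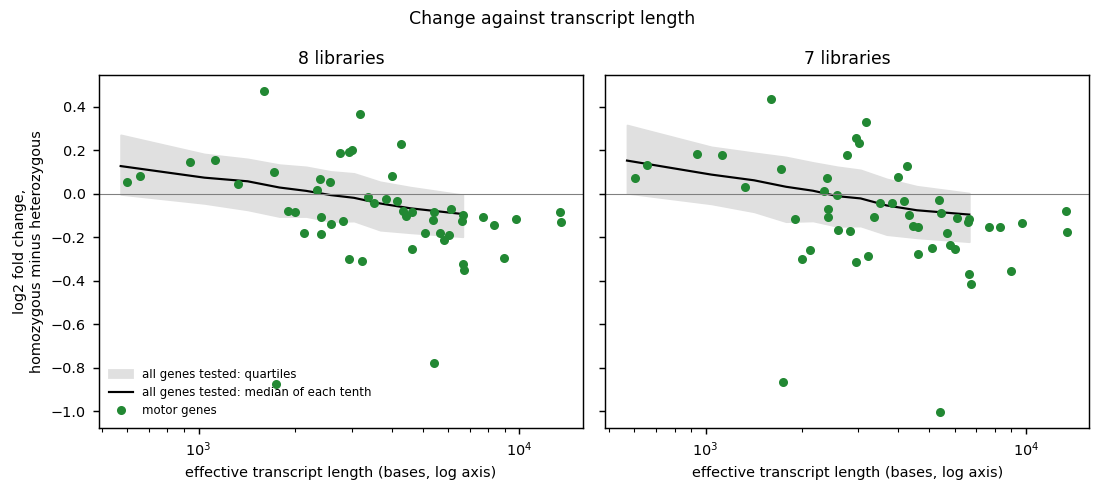
Log2 fold change (homozygous minus heterozygous) against effective transcript length (log axis), with 8 and with 7 libraries; green points are the 52 motor genes, the black line is the median of all tested genes in each of 10 length classes and the band their quartiles. Both the line and the points lie lower at greater length, from a median of 0.13 in the shortest class to -0.093 in the longest with 8 libraries.

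The 3 kinesin-1 heavy chains drive outward transport of vesicles, mitochondria and neurofilaments. Kif5a stood at 3343, 3147, 3489 and 3262 CPM in heterozygous replicates 1 to 4, 3447 in the library labelled homozygous replicate 1 and 3793, 2955 and 2377 in homozygous replicates 2 to 4. The homozygous libraries thus lay on both sides of the heterozygous range, with replicate 2 the highest of all 8 and replicate 4 the lowest. The log2 fold change was -0.068 (SE 0.13) with 8 libraries and -0.11 (SE 0.14) with 7, with adjusted p values of 0.811 and 0.685 (edgeR), and without homozygous replicate 4 it turned to 0.044 and 0.034. Kif5b, the heavy chain found in most cell types, was at 324, 355, 345 and 350.5 CPM in the heterozygous and 311, 326, 255 and 288 CPM in the homozygous libraries. Its log2 fold change was -0.21 (SE 0.078) and -0.24 (SE 0.087) (edgeR adjusted p 0.217 and 0.178), and 1 of the 4 homozygous libraries, replicate 2, lay within the heterozygous range. Kif5c, the other neuron-enriched heavy chain, was at 1079 to 1149 CPM in the heterozygous libraries and 925 to 1139 CPM in the homozygous ones, with log2 fold changes of -0.12 (SE 0.073) and -0.13 (SE 0.084).

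The mix of kinesin-1 heavy chains differed little between libraries. Kif5a made up 70.7% of their summed TPM (67.2% to 73.1% over 8 libraries), Kif5c 21.9% and Kif5b 7.42%. Among 19 such shares within subunit families, compared by a two-sided exact permutation test with Benjamini-Hochberg adjustment, none had an adjusted p under 0.271. The smallest p the test allows is 0.0286 for 4 against 4 libraries and 0.0571 for 4 against 3. With 7 libraries no share could therefore pass 0.05. With 8 libraries a share could pass after adjustment only if many of the 19 reached the smallest p together. The absence of calls thus says little about the shares. That smallest p was reached by Klc3 and Kif13b, described with their families.

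Kinesin light chains tie the heavy chains to cargo. Klc1, the main one at 77.4% of light chain TPM, was at 638, 636, 590.1 and 572 CPM in the heterozygous libraries, 624 in the library labelled homozygous replicate 1 and 559.6, 555 and 560.1 in homozygous replicates 2 to 4. Those last 3 lay under every heterozygous library, and the log2 fold change was -0.078 (SE 0.065) with 8 and -0.12 (SE 0.068) with 7 libraries (edgeR adjusted p 0.559 and 0.369). Klc4, a widely expressed light chain, showed the same arrangement, with 21.005, 20.1, 20.3 and 20.1 CPM in the heterozygous libraries, 20.9 in the library labelled homozygous replicate 1 and 15.6, 16.9 and 18.3 in the rest. Its log2 fold change was -0.18 (SE 0.088) and -0.26 (SE 0.078) (edgeR adjusted p 0.326 and 0.121). Klc2, the second most abundant, had log2 fold changes of -0.12 (SE 0.072) and -0.17 (SE 0.074). Klc3, the rarest at a mean of 1.796 TPM, had 1.71, 1.27, 1.48 and 1.55 CPM in the heterozygous and 2.26, 2.22, 2.24 and 1.63 CPM in the homozygous libraries. Only homozygous replicate 4 reached into the heterozygous range, and the log2 fold change was 0.48 (SE 0.18) and 0.44 (SE 0.20) (edgeR adjusted p 0.231 and 0.274). As a share of light chain TPM, Klc3 was 0.229% ± 0.0294 in the heterozygous and 0.335% ± 0.0434 in the homozygous group (SD, n = 4 each; exact permutation p = 0.0286, adjusted 0.271; with 7 libraries 0.0571, adjusted 0.543). Klc3 overlaps the annotated gene Ercc2, on the opposite strand.

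Kinesin-2 motors carry cargo into cilia and along neuronal processes, as a trimer in which Kif3a pairs with Kif3b or Kif3c. None of the 4 members passed the edgeR test with 8 or 7 libraries (unadjusted p under 0.05: 0 and 1 lower, and no call by DESeq2). Kif3a was at 137, 138, 129 and 148 CPM in the heterozygous libraries, 134 in the library labelled homozygous replicate 1 and 118, 120.2 and 127 in homozygous replicates 2 to 4, the last 3 under every heterozygous value. The log2 fold changes were -0.14 (SE 0.063) and -0.17 (SE 0.068) for Kif3a, -0.099 (SE 0.058) and -0.12 (SE 0.066) for the neuron-enriched Kif3c, and -0.084 (SE 0.056) and -0.089 (SE 0.065) for Kif3b. Kif17, a homodimeric motor known for carrying NMDA receptor subunits into dendrites, was the 1 member above 0, at 0.19 (SE 0.13) and 0.18 (SE 0.14). Its values of 19.1 to 26.5 CPM in the heterozygous and 20.9 to 29.6 CPM in the homozygous libraries overlapped. Kif17 overlaps Sh2d5 on the same strand, so the division of reads between them is less certain.

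Kinesin-3 motors move vesicles and endosomes over long distances, and all 6 members were below 0 in both comparisons. The largest difference among them was in Kif13b (chr14:64647265-64809617, plus strand, mm10), a motor that binds the scaffold Dlg1, carries phosphoinositide-bearing vesicles and has been studied as a regulator of myelin thickness. Kif13b was at 33.9, 33.5, 33.7 and 37.6 CPM in the heterozygous libraries, 28.7 in the library labelled homozygous replicate 1 and 14.6, 14.6 and 22.3 in homozygous replicates 2 to 4. All 4 homozygous libraries lay under all 4 heterozygous ones, replicates 2 and 3 lowest and the library with Arf1 at 308 CPM nearest to the heterozygous range. With 8 libraries the means were 34.6 ± 1.95 and 20.03 ± 6.83 CPM (SD, n = 4 each) and the log2 fold change -0.78 (SE 0.20) missed the threshold (edgeR adjusted p 0.143). With 7 libraries Kif13b fell by 50.1%, a log2 fold change of -1.003 (SE 0.14) with an edgeR adjusted p of 0.0223. In that comparison the call was lost on leaving out heterozygous replicate 2, 3 or 4 or homozygous replicate 2 or 3 (edgeR adjusted p 0.0528 to 0.0972), and was kept without heterozygous replicate 1 (0.0334) or homozygous replicate 4 (0.00131). Its share of kinesin-3 TPM was 1.79% to 1.92% in the heterozygous libraries, 1.57% in the library labelled homozygous replicate 1 and 0.825%, 0.954% and 1.43% in the other 3 (exact permutation p = 0.0286 with 8 libraries, adjusted 0.271; with 7 libraries 0.0571, adjusted 0.543).

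Cell type markers are set beside this fall. Schwann cell markers summed to 147, 308, 598 and 356 CPM in the heterozygous libraries, 43.6 in the library labelled homozygous replicate 1 and 44.2, 87.9 and 39.9 in homozygous replicates 2 to 4, with 4 of 4 below 0 and none at 0 CPM in a library. Oligodendrocyte markers summed to 10171, 11471, 11751 and 11769.8, then 11225, then 8118, 9305 and 15821 CPM in the same order, 5 of 8 below 0. Schwann cell markers were lower in all 4 homozygous than in all 4 heterozygous libraries, and the oligodendrocyte marker sums overlapped between the groups. Meningeal fibroblast markers, 5 of 5 below 0, are given above with their ranges. Other lists also leaned below 0 with 8 libraries: large axons 3 of 3, endothelium 4 of 4, oligodendrocyte precursors 4 of 4, astrocytes 4 of 6 and microglia 4 of 6. Neuron markers were 6 of 8 below 0, ependymal markers 3 of 7 and erythrocyte markers 0 of 3. The part of these cell types in the Kif13b values was not tested, and in RNA of whole tissue fewer cells of a type and less RNA per cell cannot be told apart.

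**Figure D4:**
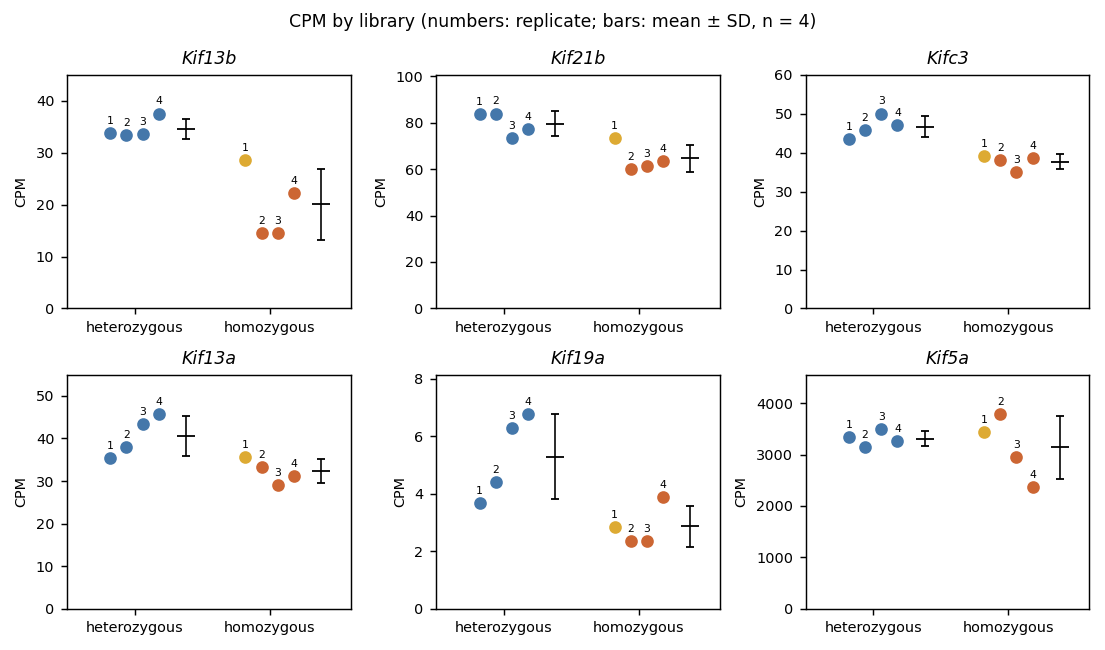
CPM of 6 motor genes in each library, with numbers giving the replicate, yellow the library labelled homozygous replicate 1, and bars the mean ± SD (n = 4 each). Kif13b and Kifc3 do not overlap between the groups, whereas Kif5a spans 2377 to 3793 CPM within the homozygous group.

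**Figure D5:**
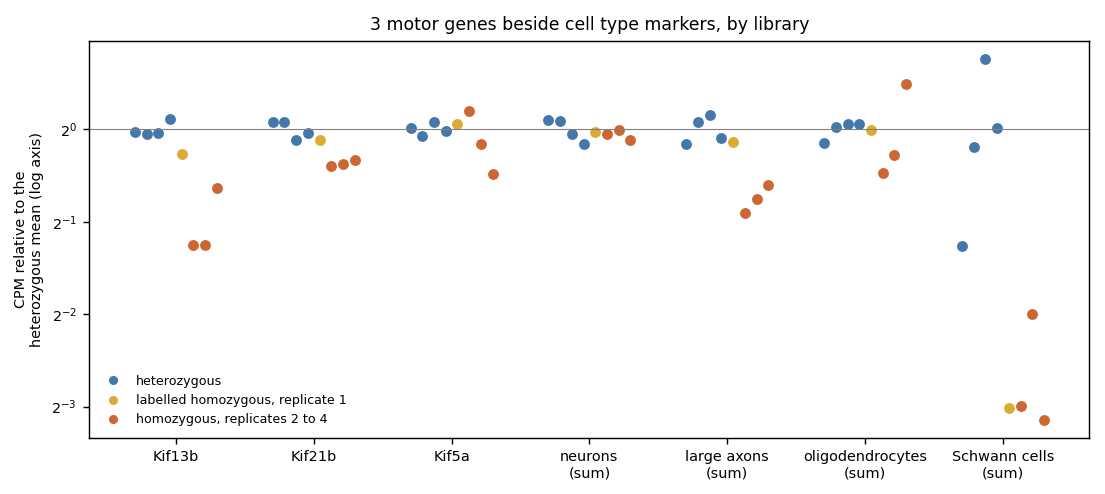
CPM of Kif13b, Kif21b and Kif5a beside summed CPM of neuron, large axon, oligodendrocyte and Schwann cell markers, each relative to its heterozygous mean (log axis), one point per library. Schwann cell markers are low in all 4 homozygous libraries, and large axon markers are low in homozygous replicates 2 to 4 only.

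Kif13a, the close relative of Kif13b that moves recycling endosomes, was at 35.4, 37.9, 43.3 and 45.8 CPM in the heterozygous and 35.7, 33.4, 29.04 and 31.2 CPM in the homozygous libraries. Only the library labelled homozygous replicate 1 came above the lowest heterozygous library. Its log2 fold change was -0.32 (SE 0.092) and -0.37 (SE 0.098) (edgeR adjusted p 0.15 and 0.0918). Kif16b, a motor of early endosomes, had 17.1, 17.9, 17.9 and 18.9 CPM in the heterozygous and 15.9, 16.2, 15.1 and 15.9 CPM in the homozygous libraries, without overlap, and a log2 fold change of -0.18 (SE 0.066) and -0.18 (SE 0.076) (edgeR adjusted p 0.223 and 0.229). The abundant vesicle motors Kif1a and Kif1b differed less. Kif1a was at 1427, 1363, 1385 and 1456 CPM in the heterozygous and 1428, 1407, 1202 and 1163 CPM in the homozygous libraries, with only homozygous replicates 3 and 4 under the heterozygous range and a log2 fold change of -0.11 (SE 0.080) and -0.15 (SE 0.084). Kif1b, which carries mitochondria and synaptic vesicle precursors, gave -0.12 (SE 0.072) and -0.14 (SE 0.081). Kif1c, a Golgi and dense-core vesicle motor, gave -0.18 (SE 0.096) and -0.25 (SE 0.094), from 151 to 166 CPM in the heterozygous and 114 to 159 CPM in the homozygous libraries, which overlapped.

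The kinesin-4 pair Kif21a and Kif21b limit microtubule growth and move in axons and dendrites. Kif21b (chr1:136131389-136177998, plus strand, mm10), the more neuronal of them, was at 83.9, 83.9, 73.2 and 77.1 CPM in the heterozygous libraries, 73.3 in the library labelled homozygous replicate 1 and 60.2, 61.5 and 63.3 in homozygous replicates 2 to 4. Those 3 lay under all heterozygous libraries, and the library labelled homozygous replicate 1 was level with the lowest heterozygous one. The log2 fold change was -0.29 (SE 0.075) with 8 libraries (edgeR adjusted p 0.136), and with 7 libraries Kif21b fell, with -0.36 (SE 0.070) and an edgeR adjusted p of 0.0466. That call was lost in each of the 7 fits that left out a further library (edgeR adjusted p 0.0538 to 0.174). Large axon markers, the 3 neurofilament genes Nefl, Nefm and Nefh, had the same arrangement at 1778, 2108, 2207 and 1865 CPM in the heterozygous libraries, 1803 in the library labelled homozygous replicate 1 and 1064, 1182 and 1315 in the rest, and all 3 fell with 7 libraries (edgeR adjusted p 0.0223 to 0.0475). The sum of the 8 neuron markers, 6 of them below 0, overlapped between the groups. The 6 motor neuron markers, 5 of them below 0, summed to 29.8 to 63.9 CPM in the heterozygous and 29.9 to 48.9 CPM in the homozygous group. Their median log2 fold change was -0.44 with 8 and -0.57 with 7 libraries. The part of neuronal content in the Kif21b values was not tested. Kif21a was at 266, 241, 224 and 259 CPM in the heterozygous and 245, 212, 188 and 218 CPM in the homozygous libraries, with a log2 fold change of -0.19 (SE 0.086) and -0.26 (SE 0.084) (edgeR adjusted p 0.296 and 0.143).

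The kinesins of motile cilia were rare. Kif19a (chr11:114765388-114790739, plus strand, mm10), which shortens motile cilia by taking apart microtubule ends, had 3.68, 4.403, 6.29 and 6.78 CPM in the heterozygous and 2.86, 2.36, 2.36 and 3.87 CPM in the homozygous libraries. Homozygous replicate 4 alone came above the lowest heterozygous library, the heterozygous values themselves spanned 3.68 to 6.78 CPM, and the log2 fold change was -0.87 (SE 0.23) and -0.87 (SE 0.26) (edgeR adjusted p 0.138 and 0.126). The other kinesins of motile cilia lay near or above 0. Kif6 was at 0.20 (SE 0.20) and 0.23 (SE 0.23), Kif27 at 0.23 (SE 0.22) and 0.13 (SE 0.24), and Kif9 at 0.056 (SE 0.18) and -0.0061 (SE 0.20). The 7 markers of ependymal cells, the ciliated lining of the central canal, summed to 19.2 to 48.2 CPM in the heterozygous and 24.7 to 38.7 CPM in the homozygous group, 3 of 7 below 0 with 8 libraries, and none was at 0 in a library. Kif7, a regulator of Hedgehog signalling in the primary cilium, and Kif24, a kinesin of centrioles, gave -0.080 (SE 0.23) and -0.19 (SE 0.42) with 8 libraries, and -0.095 (SE 0.26) and -0.070 (SE 0.46) with 7.

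The 9 mitotic kinesins, which build and position the spindle, were rare in these libraries, and none passed the test with 8 or 7 libraries, or had an unadjusted p under 0.05 (edgeR; 0 in each direction, and 0 calls by DESeq2). Kif22 and Kif4, which bind chromosome arms, were at 1.46 to 1.83 and 1.52 to 2.004 CPM in the heterozygous and 1.26 to 2.28 and 1.204 to 2.29 CPM in the homozygous libraries. Kifc1, a minus-end motor of the spindle, was at 1.03 to 1.54 and 0.801 to 1.65 CPM. Log2 fold changes of the 9 ran from -0.31 to 0.37 with 8 libraries, with SEs of 0.21 to 0.49, and from -0.30 to 0.33 with 7, with SEs of 0.23 to 0.57. The 6 markers of dividing cells summed to 4.64 to 9.796 CPM in the heterozygous and 3.76 to 9.37 CPM in the homozygous group.

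Among the other kinesins, Kifc3 (chr8:95099828-95202812, minus strand, mm10), a minus-end motor known from epithelial junctions, had the smallest p of any member with 8 libraries. Kifc3 was at 43.6, 45.8, 50.1 and 47.2 CPM in the heterozygous libraries, 39.3 in the library labelled homozygous replicate 1 and 38.1, 34.96 and 38.6 in homozygous replicates 2 to 4. The groups did not overlap, and the library with Arf1 at 308 CPM was low with the others. The log2 fold change was -0.30 (SE 0.062) and -0.32 (SE 0.070), and the edgeR adjusted p of 0.112 and 0.0623 missed the threshold. Kifc2, a minus-end motor of neurons, was at 421, 451, 444 and 361 CPM in the heterozygous and 416, 536, 554 and 402 CPM in the homozygous libraries, with a log2 fold change of 0.19 (SE 0.12) and 0.26 (SE 0.12) (edgeR adjusted p 0.433 and 0.285). On the log2(TPM + 1) scale it was 0.0059 with 8 and 0.029 with 7 libraries. Homozygous replicates 2 and 3 stood above the other 6 libraries. Kif2a, which takes apart microtubule ends and prunes axon branches, gave -0.031 (SE 0.052) and -0.033 (SE 0.060), the smallest difference of the 5 genes in this group. Kif26a and Kif26b, kinesins known for roles in signalling, gave -0.35 (SE 0.15) and -0.082 (SE 0.13) with 8 libraries, and -0.42 (SE 0.17) and -0.079 (SE 0.15) with 7 (edgeR adjusted p of Kif26a 0.281 and 0.213).

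Cytoplasmic dynein-1 is assembled from a heavy chain with the motor domain and from intermediate and light intermediate chains that hold the complex and its adaptors. None of its 5 genes passed the edgeR test with 8 or 7 libraries (unadjusted p under 0.05: 1 and 0 lower, and no call by DESeq2). The heavy chain Dync1h1, mutated in motor neuropathies, was at 739.7, 718, 707 and 799.5 CPM in the heterozygous and 683, 689, 633 and 664 CPM in the homozygous libraries, all 4 homozygous libraries under all 4 heterozygous ones. Its log2 fold change was -0.14 (SE 0.062) and -0.15 (SE 0.072) (edgeR adjusted p 0.275 and 0.274). The light intermediate chain Dync1li1 had the same order at 70.8, 68.1, 67.6 and 64.8 CPM in the heterozygous and 63.5, 61.7, 62.8 and 63.1 CPM in the homozygous libraries, with -0.10 (SE 0.051) and -0.11 (SE 0.059). Its counterpart Dync1li2 gave -0.10 (SE 0.068) and -0.15 (SE 0.068). Both intermediate chains lay slightly above 0. The neuronal Dync1i1 was at 0.067 (SE 0.054) and 0.074 (SE 0.062) and the general Dync1i2 at 0.019 (SE 0.053) and 0.012 (SE 0.061). In TPM both went the other way. Dync1i1 lay below 0 on the log2(TPM + 1) scale, and Dync1i2 had a mean TPM of 80.9 in the heterozygous and 72.65 in the homozygous group. Dync1i1 made up 56.2% of intermediate chain TPM.

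Dynein-2 returns cargo from the tip of the cilium. Its light intermediate chain Dync2li1 was at 10.4, 11.6, 11.9 and 11.8 CPM in the heterozygous and 12.2, 12.7, 12.9 and 12.99 CPM in the homozygous libraries, the 1 motor gene in which all 4 homozygous libraries were above all 4 heterozygous ones. The log2 fold change was 0.16 (SE 0.079) and 0.18 (SE 0.087) (edgeR adjusted p 0.333 and 0.292), and -0.018 on the log2(TPM + 1) scale with 8 libraries. The heavy chain Dync2h1 gave -0.13 (SE 0.10) and -0.17 (SE 0.11), with 35.9 to 47.7 CPM in the heterozygous and 31.1 to 39.2 CPM in the homozygous libraries.

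Dynactin, which makes dynein processive and links it to cargo, differed little between the groups. Its 6 genes had log2 fold changes from -0.041 to 0.15 with 8 libraries and from -0.044 to 0.18 with 7, with SEs of 0.051 to 0.072 and 0.058 to 0.081, and none passed the edgeR test (unadjusted p under 0.05: 0 with 8 libraries, and 1 higher, Dctn6, with 7, and no call by DESeq2). Dctn1, the large subunit that binds microtubules and dynein and is mutated in a motor neuron disease, was at 354, 366, 350.2 and 353 CPM in the heterozygous and 362, 347, 341 and 343 CPM in the homozygous libraries, with -0.025 (SE 0.051) and -0.040 (SE 0.058). Dctn2, the shoulder subunit also called dynamitin, was at 208 to 235 CPM in the heterozygous and 233 to 247 CPM in the homozygous libraries, with 0.10 (SE 0.058) and 0.11 (SE 0.065). Dctn6, a subunit of the pointed end, had 48.3, 57.04, 53.7 and 49.3 CPM in the heterozygous and 53.8, 57.6, 62.5 and 56.1 CPM in the homozygous libraries, with 0.15 (SE 0.072) and 0.18 (SE 0.076). Dctn2, Dctn3 and Dctn6 lay above 0 on the CPM scale and below 0 on the log2(TPM + 1) scale. On that TPM scale the median of all tested genes was itself -0.14 with 8 libraries and -0.17 with 7. Dctn5, at 0.047 and 0.033 on the CPM scale, also had a lower mean TPM in the homozygous group (74.5) than in the heterozygous group (80.7).

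Beyond the motors, 63 of 67 listed cargo adaptors, dynein light chains, regulators and dynein-2 partners were in the files, and all 63 were tested. None passed the threshold with edgeR, with 8 or 7 libraries. At an unadjusted p under 0.05, 3 were higher and 1 lower with 8 libraries, and 3 and 4 with 7, where the shares of all tested genes were 7.87% and 8.90%, and 9.51% and 9.94%. DESeq2 called 1 of the 63 higher with 8 libraries, and 2 higher and 2 lower with 7. Over all genes DESeq2 called 270 higher and 409 lower of 16511 with 8 libraries, and 431 and 650 of 16560 with 7. Their median log2 fold change was -0.053 and -0.054, with 39 and 43 of 63 below 0. The smallest p belonged to Wdr34, an intermediate chain of dynein-2, at 18.5 to 20.1 CPM in the heterozygous and 21.7, 24.9, 25.2 and 23.1 CPM in the homozygous libraries. All 4 homozygous libraries stood above all 4 heterozygous ones, the same order as for Dync2li1, and the log2 fold change was 0.30 (SE 0.071) and 0.34 (SE 0.072) (edgeR adjusted p 0.13 and 0.0535). Tctex1d2, a light chain of dynein-2, had that order too, at 6.56, 6.37, 6.42 and 5.96 CPM in the heterozygous and 6.82, 7.28, 8.49 and 8.496 CPM in the homozygous libraries, with 0.30 (SE 0.11) and 0.36 (SE 0.11). Of all tested genes, 4.28% had that order with 8 libraries. Wdr60, the other intermediate chain of dynein-2, was named after its values were seen and did not have it, at 15.1, 11.9, 13.2 and 15.4 CPM in the heterozygous and 13.6, 14.4, 10.7 and 13.96 CPM in the homozygous libraries, with -0.075 (SE 0.12) and -0.087 (SE 0.13). The 3 dynein-2 genes with that order have effective lengths of 1555 bases for Wdr34, 671 for Tctex1d2 and 1127 for Dync2li1, against 3528 for Wdr60 and 13487 for Dync2h1. The listed dynein light chains of 300 to 610 bases overlapped between the groups with 8 libraries. In order of length they were Dynlrb2, Dynlrb1, Dynll1, Dynlt1a, Dynlt1b, Tctex1d4 and Dynlt1f. Their log2 fold changes with 8 libraries, in that order, were 0.49, 0.16, -0.029, 0.14, -0.13, 0.18 and 0.043. The part of length in these differences was not tested. Hook3, an adaptor that joins dynein to endosomes and has a transcript of 12302 bases, gave -0.23 (SE 0.077) and -0.22 (SE 0.087), and Capzb, the capping protein at the barbed end of dynactin, 0.18 (SE 0.070) and 0.23 (SE 0.064).

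The authors' deposited table of 185 changed genes holds 2 of the 52 motor genes, Kif13b and Kif19a. In the authors' deposited table Kif13b has a log2 fold change of -1.08 with a false discovery rate of 6.26e-06, and Kif19a one of -1.08 with a rate of 0.0077. Of these, edgeR called Kif13b with 7 libraries only and Kif19a with neither 8 nor 7, while DESeq2 called Kif13b (adjusted p 0.00534 and 2.34e-08) and Kif19a (0.0172 and 0.0321) with both. The edgeR log2 fold changes here were -0.78 and -1.003 for Kif13b and -0.87 and -0.87 for Kif19a. Whether the authors used the same libraries, filter and test was not checked.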

How the data were processed

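Spinal cord RNA of 8 mice was sequenced as 8 libraries, grouped by the genotype label. Per the submitters' processing notes, reads were handled with cutadapt, STAR, Picard and RSEM on mm10; tool versions: not given in the sources used here. Deposited by the authors were expected counts from RSEM with TPM and FPKM, by gene and library, per the file headers; the deposited FPKM were not analysed further. Per the file headers, the authors' own comparison holds log2 fold changes, p-values and false discovery rates. Other quality values, such as percent mapped and RNA integrity number, come from a sequencing report that the authors deposited. RSEM divides reads shared by similar or overlapping genes, so such genes are less certain.

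Expected counts were rounded to whole numbers. Groups were compared with edgeR 4.0.16 (R 4.3.3) over all genes passing filterByExpr, using TMM scaling, robust quasi-likelihood fits and p-values adjusted by Benjamini-Hochberg, at a threshold of 0.05; the fit was tested on simulated data. CPM are TMM-scaled, SE belongs to the log2 fold change, and all SDs are over the libraries named. The library labelled homozygous replicate 1 was kept in one comparison and left out of the other. The gene members, the lists and the alternatives were chosen with earlier results of these data known. Full statistics were given for members past the threshold, the 6 with the smallest p in each comparison and the 3 most abundant of each role, and of the adaptor list for the 4 with the smallest p; other members could be named with values. Subunit shares of TPM were compared with exact permutation tests, added later. Alternatives were DESeq2 1.42.0, size factors by median of ratios, a filter of at least 1 CPM in 4 libraries or none, limma 3.58.1 as voom and on log2(TPM + 1) or log2(TPM + 0.1), a fit that was not robust, a covariate for Xist, a threshold of 0.1 and each library left out. Positions are from GENCODE release M21, which matched 47224 of 47643 gene identifiers. Tables and figures were made with Python 3.11.15, pandas 2.3.3, scipy 1.17.1 and matplotlib 3.10.9. Totals of 26321522 to 37879426 expected counts per library leave genes under 1 CPM with few counts.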

Additional observations from a re-analysis of the deposited data

Results flagged for a closer look

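In 5 of 72 groups of 4 libraries, over 36 motor genes, 1 library stood apart from its group by a gap taking up most of the group's whole range (Dixon's 95% critical value for 4 samples); chance does this in about 1 in 20 groups. The library labelled homozygous replicate 1 held 624 CPM of Klc1, against 555 to 560.1 CPM in the other homozygous libraries. Klc3 was at 1.63 CPM in homozygous replicate 4, against 2.22 to 2.26 CPM in the others of its group. Kif13b was at 37.6 CPM in heterozygous replicate 4, against 33.5 to 33.9 CPM in the other heterozygous libraries. Dync2h1 was at 47.7 CPM in the same library, against 35.9 to 36.4 CPM. Kif2a was at 94.7 CPM in heterozygous replicate 2, against 87.2 to 88.1 CPM.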

How the results depend on the processing

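Kif13b and Kif21b kept their direction under all alternatives run with 8 and with 7 libraries. Kif13b ranged in log2 fold change from -1.005 to -0.65 (8 libraries) and -1.24 to -0.90 (7), and its adjusted p with 7 libraries from 2.34e-08 to 0.0972. Kif21b ranged from -0.46 to -0.26 and from -0.56 to -0.33, and its call with 7 libraries was also lost with limma-voom, with a fit that was not robust and with Xist as a covariate.

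Motor genes called lower with 8 libraries (0) became 5 with DESeq2 and 0 to 2 with 1 library left out. With 7 libraries, 2 became 4 without a filter, 5 with DESeq2, 1 with limma-voom, 1 with a fit that was not robust, 1 with Xist as a covariate, 4 at an adjusted p of 0.1, 21 with limma on either log2 TPM scale, and 0 to 2 with 1 library left out (Kif13b and Kif1c without homozygous replicate 4). Adaptor and regulator genes called higher became 1 with DESeq2 (8 libraries), 2 with DESeq2 and 1 at an adjusted p of 0.1 (7 libraries), and called lower 2 with DESeq2 and 19 and 20 with limma on log2(TPM + 1) and log2(TPM + 0.1). The median of the motor genes went on these TPM scales to -0.21 and -0.25 with 8 and to -0.23 and -0.33 with 7 libraries, where the median of all genes was -0.14 and -0.17, and -0.17 and -0.21.

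Over all genes and 8 libraries, higher and lower calls (0 and 0) became 19 and 44 without a filter, 270 and 409 with DESeq2, 21 and 50 at an adjusted p of 0.1, and 0 and 1 on both TPM scales. With 1 library left out they were 0 to 91 higher and 0 to 111 lower. With 7 libraries, 91 and 111 became 157 and 287 without a filter, 431 and 650 with DESeq2, 55 and 54 with limma-voom, 33 and 30 with Xist as a covariate, and 367 and 467 at an adjusted p of 0.1. Lower calls were 69 with a fit that was not robust, 2065 on log2(TPM + 1) and 2148 on log2(TPM + 0.1). With 1 library left out they were 3 to 139 higher and 3 to 263 lower.

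Differences near 0 changed sign in places. On log2(TPM + 1) and log2(TPM + 0.1) with 8 libraries, Kif22 was -0.028 and -0.044, Kif4 -0.20 and -0.43, Dync1i1 -0.11 and -0.11, Dync2li1 -0.018 and -0.018, Dctn2 -0.074 and -0.075, Dctn3 -0.17 and -0.17, and Dctn6 -0.032 and -0.033. With 7 libraries Kif4 was -0.20 and -0.44, Dync1i1 -0.14 and -0.15, Dync2li1 -0.038 and -0.040, Dctn2 -0.10 and -0.10, Dctn3 -0.18 and -0.18, and Dctn6 -0.037 and -0.038. Kif22 was -0.0004 with Xist as a covariate (8 libraries). With 1 library left out, Kif5a ranged from -0.17 to 0.044 with 8 and from -0.30 to 0.034 with 7 libraries, positive without homozygous replicate 4. Kif22 ranged from -0.061 to 0.21 and from -0.053 to 0.35, negative without homozygous replicate 4. Kif4 ranged from -0.056 to 0.23 and from -0.14 to 0.30, negative without homozygous replicate 2. Dctn3 ranged from -0.0014 to 0.093 and from -0.011 to 0.12, negative without homozygous replicate 3. Kifc1 with 8 libraries ranged from -0.30 to 0.056, and was 0.026 without heterozygous replicate 3 and 0.056 without homozygous replicate 3. The cause was not tested.

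No paired analysis was made because the labels name no pairs. Each title carries a number of its own, and the replicate numbers follow only the order of deposition. Few counts lie behind the 9 members under 1 TPM, and how far depth limits their tests was not measured.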

Other observations

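Kif5a and Dctn2 are neighbours on chromosome 10, on opposite strands with 3019 bases between them, and were the only 2 motor genes within 100 kb of each other. Kif5a was at 3447, 3793, 2955 and 2377 CPM in homozygous replicates 1 to 4, and Dctn2 at 234, 233, 247 and 242 CPM in the same libraries, replicate 1 being the library with Arf1 at 308 CPM. Homozygous replicate 4, lowest of all 8 libraries in Kif5a, was second highest in Dctn2.

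Per unit length and relative to all transcripts, the summed motor TPM was 4531 ± 169 in the heterozygous and 3862 ± 388 in the homozygous group (SD, n = 4 each). Homozygous replicates 2 to 4 held 3929, 3467 and 3683 TPM, the library labelled homozygous replicate 1 held 4370.1 TPM and the heterozygous libraries 4546, 4478, 4346 and 4752 TPM. The library labelled homozygous replicate 1 lay within the heterozygous range and homozygous replicates 2 to 4 under it. The TPM scale moved the median log2 fold change of all tested genes in the same direction, as given with the processing.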
